A study of Mus musculus with 20 samples.

Results

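Anxa8, Jam2, Scgb1c1, Clvs1, Fam110b, Ier5l, Creb5 and Nus1 are 8 genes without a well-known role in the radiation response that are tied to blood classifiers of radiation exposure, and they were followed across the 4 groups of a mouse study. The members were found by gene name among the non-control probes of 20 single-colour Agilent arrays, which gave 13 of 39429 probes and 8 of 31093 gene names. The study asked how chronic inflammation changes gene expression signatures of radiation exposure. Male littermates of 8 to 10 weeks were labelled WT (C57BL/6) or Il10-/- (B6.129P2-Il10tm1Cgn/J, a constitutive deletion on the same background), received whole-body X-rays of 7 Gy or a sham exposure of 0 Gy, and were bled by cardiac puncture 24 h later. Each of the 4 groups had 5 arrays, listed as 1 array per mouse, and RNA of whole blood had its globin transcripts reduced before 100 ng was labelled. Values are log2 signals with the median of each array set to 0, so that a difference of 1 is a doubling, and they are given as mean ± SD with n = 5 unless another error is named.

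A dose of X-rays breaks DNA and stabilises p53, which switches on genes such as Cdkn1a, Phlda3, Ccng1 and Aen, and lymphocytes in blood die within a day. A classifier picks genes by how well they separate exposed from unexposed samples, not by what they do, so genes outside these pathways can enter it. IL-10 is a cytokine that restrains inflammation, and mice without it develop inflammation of the gut.

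The greedy pairs method ranks features by a t statistic of irradiated against control arrays, pairs each with a partner and keeps 12 pairs, which is 24 features. The study's published lists name Nus1 for training on WT arrays, and Ier5l and Creb5 for training on Il10-/- arrays. Rebuilt here on WT arrays, the selection held 5 of the 8 members: Jam2, Scgb1c1 and Anxa8 as first members of pairs 2, 3 and 4, Fam110b as the partner of Anxa8, and Clvs1 as the partner in pair 1. Rebuilt on Il10-/- arrays it held 0, and on the deposited table of processed values it held 0 for WT and 2 for Il10-/- arrays, Anxa8 and Ier5l. Separation by dose in the training arrays is therefore a property of the selection and is given below as a description. For a single gene, a p-value of dose is given only for arrays that the selection of that gene did not use. These are the Il10-/- arrays for Jam2, Scgb1c1, Clvs1, Fam110b and Nus1 and the WT arrays for Ier5l and Creb5. Since the genes were proposed with results of both genotypes known, these p-values are not independent evidence either. Counts of called members, and calls named with them, also cover selecting arrays and are a description. Comparisons between genotypes share arrays with the selection, though not its contrast.

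The probe of the targeted gene read higher, not lower, on arrays labelled Il10-/-. The Il10 probe A_51_P430766 was well above background on 10 of 10 arrays labelled Il10-/-, between 1.94 and 3.29, and on 0 of 10 arrays labelled WT, between −2.64 and −1.06. Whether the probe lies in the altered part of the allele is not given in the sources used here, so every direction between genotypes below rests on the labels, and WT and Il10-/- stand for the mice labelled so. Of 9 tested neutrophil genes, 4 (S100a8, S100a9, Retnlg and Il1r2) were called higher in the unirradiated mice labelled Il10-/-, by 1.88 to 2.88. In this comparison 0.845% of all features were called, all of them higher. Array 5 of the unirradiated WT mice was the weakest, with 29.9% of spots well above background against 34.6% to 57.8% on the other 19 arrays. The 34.6% was that of replicate 3 of the irradiated Il10-/- mice. Replicates 1 and 2 resembled each other most in all 4 groups, with a robust SD of their differences of 0.23 to 0.34 in these 4 pairs against 0.41 to 1.39 in the other 36 pairs, and they were counted as separate mice. Of the blood cell markers, 8 of 9 tested B cell genes were called lower after irradiation in both genotypes. So were 4 of 8 erythroid genes in WT and 5 of 8 in Il10-/- mice, where 2.32% and 5.87% of features were called lower. In bulk blood, fewer cells of a type and less RNA per cell cannot be told apart.

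Irradiated and unirradiated arrays of both genotypes stood furthest apart for Anxa8 and Jam2, then for Scgb1c1, Ier5l and Clvs1, where irradiated arrays were higher, and for Creb5, where they were lower. They overlapped for Fam110b and for Nus1. In WT mice 5 of the 8 leading probes were called by limma (p below 0.001, and a false discovery rate below 10% by Benjamini and Hochberg), all higher, where 6.8% of the 18587 features tested were called, 4.48% higher and 2.32% lower. In Il10-/- mice 7 of 8 were called, 6 of them higher and Creb5 lower, where 9.16% of features were called, 3.29% higher and 5.87% lower. With the slide as a block 4 were called in WT mice, without Fam110b, and 7 in Il10-/- mice, where 1626 and 1290 features were called. An unadjusted p below 0.05 was reached by 7 members in WT mice, where 29.1% of features did so, and by 7 in Il10-/- mice, where 35.5% did. The dose groups did not overlap for 7 members in WT and 6 in Il10-/- mice, which held for 16.1% and 17% of features. The members were chosen on these contrasts, so nothing is read from their counts. The median difference of the 8 members was 1.64 in WT and 1.81 in Il10-/- mice, where the medians over all features were −0.02 and −0.10. The 10 irradiated and 10 unirradiated arrays of both genotypes did not overlap for 6 of the 8 members, where this held for 4.94% of features.

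**Figure D1:**
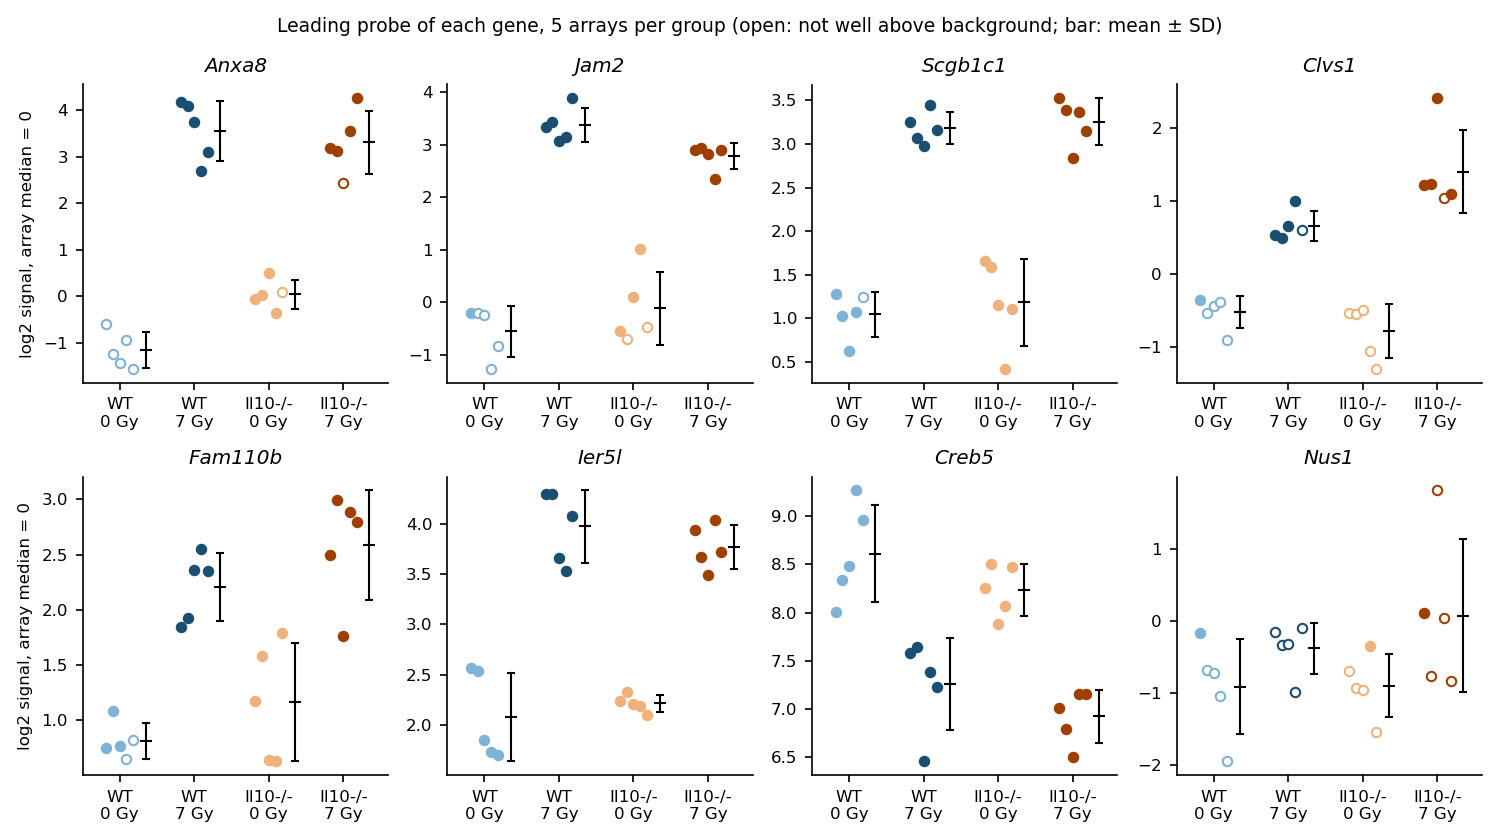
Log2 signal (array median = 0) of the leading probe of each of the 8 genes in 5 arrays per group. Open circles are arrays on which the probe was not well above background, and bars give mean ± SD. Irradiated arrays of both genotypes lie above all unirradiated arrays for Anxa8, Jam2, Scgb1c1, Clvs1 and Ier5l, and below them for Creb5, while Fam110b and Nus1 overlap.

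Anxa8 encodes an annexin, a protein that binds phospholipid membranes in the presence of calcium. Its leading probe A_51_P207591 lies at chr14:34913661-34913720 (mm9), from base 1785 of the transcript NM_013473, and is printed on 10 spots of each array. The first 30 bases of this probe are atcctctgatcgtggtctccgagcctgaag, shown because the signal differed more than that of any other member. Unirradiated WT arrays read −0.59, −1.24, −1.43, −0.94 and −1.57, none of them well above background (−1.15 ± 0.40). Irradiated WT arrays read 4.18, 4.09, 3.75, 2.69 and 3.09 (3.56 ± 0.65). On this scale the irradiated WT group was at least 12.2-fold higher, a bound set by the lowest signal well above background on each unirradiated array. The difference of means was 4.71 (SE 0.40), and under 12 alternative settings it was 1.44 to 4.71. Unirradiated Il10-/- arrays read −0.06, 0.02, 0.50, −0.35 and 0.09 (0.04 ± 0.31). Irradiated Il10-/- arrays read 3.18, 3.12, 2.43, 3.55 and 4.26 (3.31 ± 0.67), a difference of 3.27 (SE 0.32). Under the 12 alternative settings the Il10-/- difference was 0.82 to 3.82. Every irradiated array of either genotype thus lay above every unirradiated one, and the lowest of them, Il10-/- replicate 3, was not called well above background. On that array 5 of the 10 spots were well above background and their SD was 0.74, where the irradiated WT arrays had all 10 spots well above and a spot SD of 0.05 to 0.17.

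The second Anxa8 probe, A_55_P1965338 at chr14:34913148-34913207, showed a smaller difference, 1.72 in WT and 1.59 in Il10-/- mice, and its dose groups overlapped. Over the 20 arrays the 2 probes correlated by r = 0.78, and the points share their dose groups. These values describe arrays on which Anxa8 was selected, so no test of dose is given for either probe.

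Jam2 encodes a junctional adhesion molecule, an immunoglobulin superfamily protein at contacts between endothelial cells and between endothelium and leukocytes. Its leading probe, A_55_P2123502 at chr16:84816558-84816617, begins at base 1108 of NM_023844, and a second tested probe, A_55_P2381926 at chr16:84824952-84825011, begins at base 3148 of the same transcript. The full leading probe and the first 30 bases of the second are shown because only the former moved with dose.
Jam2 A_55_P2123502: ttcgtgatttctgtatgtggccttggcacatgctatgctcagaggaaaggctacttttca
Jam2 A_55_P2381926: ccatgaagacctgtctgtctgctgttttct

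Unirradiated Il10-/- arrays read −0.54, −0.70, 0.10, 1.02 and −0.46 at the leading probe (−0.12 ± 0.70). Irradiated Il10-/- arrays read 2.90, 2.93, 2.81, 2.35 and 2.90 (2.78 ± 0.24). The groups did not overlap, which by itself fixes the same direction in 5 of 5 slides. Jam2 rose 7.43-fold, by 2.89 (SE 0.32, 95% interval 2.19 to 3.59) with a limma adjusted p of 0.000129. With normexp background correction the Jam2 difference was 0.66 and was not called (limma adjusted p = 0.944), where 0 of 11433 features were called. In the WT arrays that selected it, unirradiated mice read −0.20, −0.21, −0.23, −1.27 and −0.83 (−0.55 ± 0.49), of which only replicate 1 was well above background. Irradiated WT mice read 3.33, 3.43, 3.07, 3.14 and 3.88 (3.37 ± 0.32), a difference of 3.92. The second probe gave differences of −0.11 in WT and 0.19 in Il10-/- mice (adjusted p = 0.842 for Il10-/-, 95% interval −1.08 to 1.45), with an SD of up to 1.41 within a group. Its values correlated with those of the leading probe by r = −0.05 over the 20 arrays. Another Jam2 probe, A_55_P2123496, was marked as not significantly above background on 11 arrays and was not tested.

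**Figure D2:**
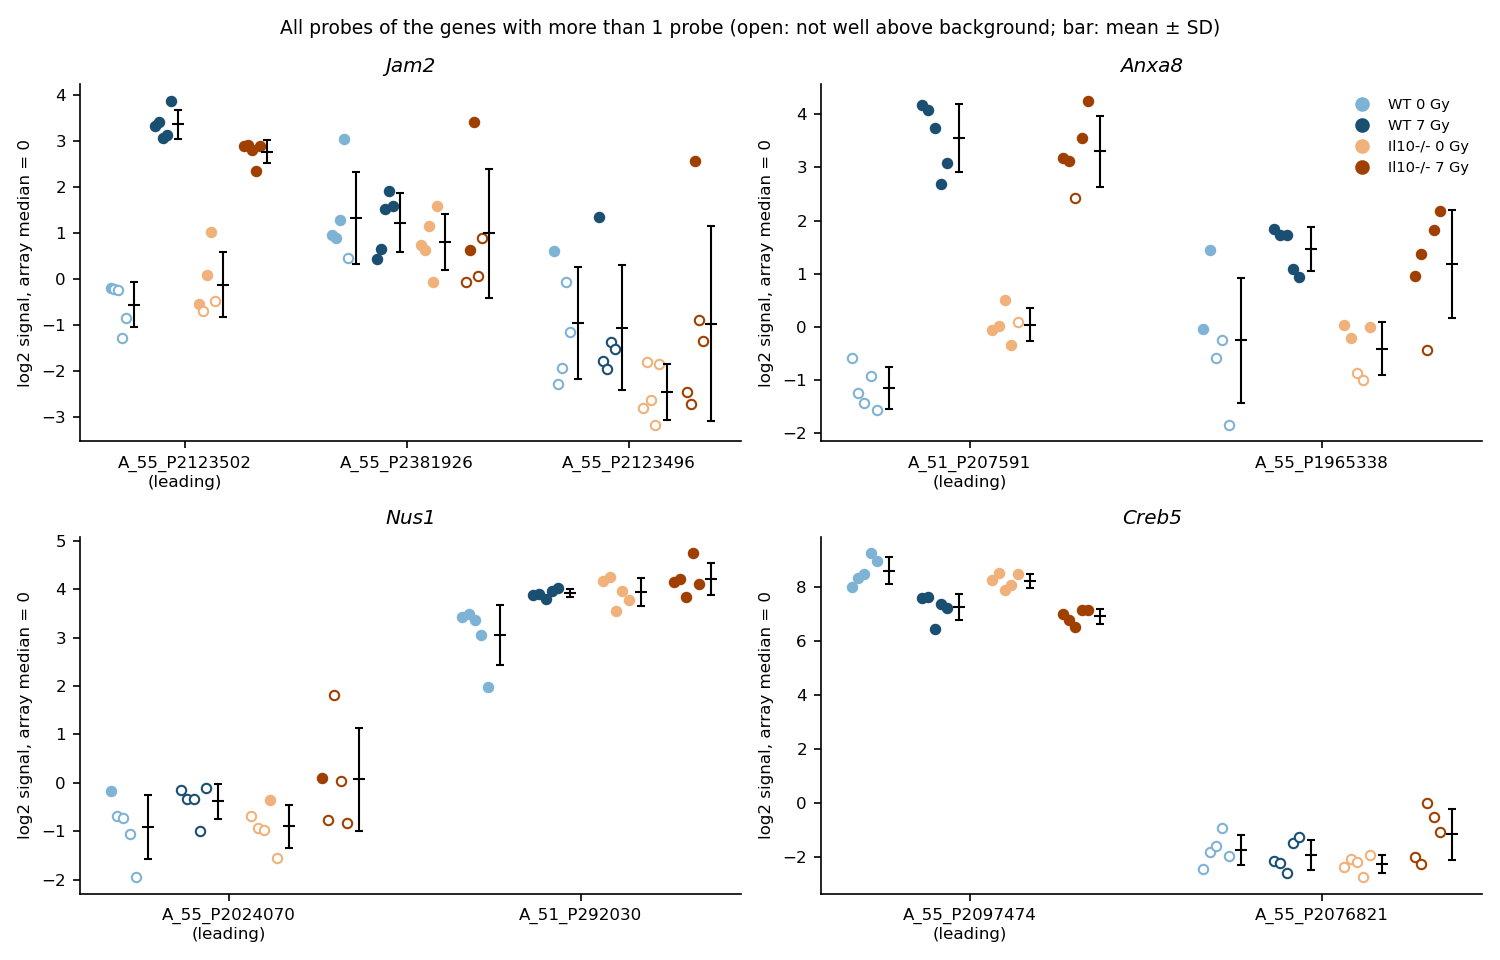
Log2 signal (array median = 0) of every probe of Jam2, Anxa8, Nus1 and Creb5 in 5 arrays per group, with open circles for arrays not well above background and bars for mean ± SD. The leading Jam2 probe separates the doses while A_55_P2381926 overlaps in all 4 groups, the Anxa8 probes move the same way by different amounts, and the bright Nus1 probe is lowest in unirradiated WT mice.

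Scgb1c1 encodes a secretoglobin, a family of small secreted proteins of mucosal surfaces. The sequence of its probe A_52_P156775, at chr7:148032087-148032146 and from base 207 of NM_001099742, is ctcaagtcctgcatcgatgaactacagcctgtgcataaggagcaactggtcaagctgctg, shown whole as the 1 probe of this gene. Unirradiated Il10-/- arrays read 1.66, 1.58, 1.15, 0.42 and 1.10 (1.18 ± 0.50). Irradiated Il10-/- arrays read 3.53, 3.39, 2.84, 3.36 and 3.15 (3.25 ± 0.27). The groups were well apart, and Scgb1c1 rose by 2.07 (SE 0.27, 95% interval 1.48 to 2.66, limma adjusted p = 0.000399). The Scgb1c1 call was lost with normexp background correction, where the difference was 0.71 (limma adjusted p = 0.944) and 0 of 11433 features were called. In the selecting WT arrays the values were 1.28, 1.02, 0.62, 1.07 and 1.24 without irradiation (1.05 ± 0.26) and 3.25, 3.07, 2.97, 3.44 and 3.16 with it (3.18 ± 0.18), a difference of 2.13. The genotypes differed for Scgb1c1 by 0.14 without and by 0.07 with irradiation, within the spread of the arrays.

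Clvs1 encodes clavesin, a lipid-binding CRAL-TRIO protein of clathrin-coated vesicles that is known from neurons. Its probe A_55_P2034710 lies at chr4:9378771-9378830, from base 3536 of NM_028940. Its last 30 bases, agttcctctgtttAATAAAtactgaagaac, hold AATAAA, given in capitals, the letters of the common polyadenylation signal. On either strand, counting AATAAA or TTTATT, these letters occur in 16.2% of all probes, so that their presence is a description only. Unirradiated Il10-/- arrays read −0.53, −0.55, −0.50, −1.06 and −1.31, none well above background (−0.79 ± 0.37). Irradiated Il10-/- arrays read 1.23, 1.23, 2.41, 1.04 and 1.10 (1.40 ± 0.57), with replicate 3 far above the others. On that array 34.6% of spots were well above background. Clvs1 rose in Il10-/- mice by 2.19 (SE 0.30, 95% interval 1.53 to 2.85, limma adjusted p = 0.000587), which is at least 3.93-fold. WT arrays read −0.36, −0.54, −0.44, −0.39 and −0.91 without irradiation (−0.53 ± 0.22) and 0.54, 0.50, 0.65, 1.01 and 0.61 with it (0.66 ± 0.20), a difference of 1.19. The 2 WT groups did not overlap. Clvs1 was well above background on 1 of 10 unirradiated arrays, and it was not in the test with normexp background correction.

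Fam110b encodes a protein of the centrosome and spindle pole. Its probe A_51_P440865 lies at chr4:5726766-5726825, from base 1669 of NM_173426, and is the only probe of this gene.
Fam110b A_51_P440865: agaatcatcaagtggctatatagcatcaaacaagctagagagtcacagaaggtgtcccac

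Unirradiated Il10-/- arrays read 1.17, 1.59, 0.64, 0.63 and 1.79 (1.16 ± 0.53). Irradiated Il10-/- arrays read 2.49, 2.99, 1.76, 2.88 and 2.80 (2.58 ± 0.50). The lowest irradiated and the highest unirradiated array overlapped, although the irradiated array was the higher in all 5 slides. Fam110b rose 2.68-fold, by 1.42 (SE 0.32, 95% interval 0.73 to 2.11, limma adjusted p = 0.00884). This call held without replicate 2 or 5 of the unirradiated or replicate 3 of the irradiated Il10-/- mice, and was lost when any of the other 7 arrays was left out, with differences of 1.29 to 1.63 and adjusted p of 0.00372 to 0.0252 over the 10. In the selecting WT arrays the values were 0.75, 1.08, 0.77, 0.65 and 0.82 without irradiation (0.81 ± 0.16) and 1.84, 1.93, 2.36, 2.55 and 2.35 with it (2.21 ± 0.30), a difference of 1.39. These 2 groups were apart.

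Ier5l is a relative of the immediate early gene Ier5, and its product has no well-defined function. Its probe A_55_P2121856 lies at chr2:30328157-30328216 in descending order, from base 1503 of NM_030244, and its last 30 bases, ctgatgttttataaattgtaaAATAAAaaa, also hold AATAAA, in capitals. Unirradiated WT arrays read 2.57, 2.53, 1.85, 1.73 and 1.70 (2.08 ± 0.44). Irradiated WT arrays read 4.30, 4.30, 3.66, 3.53 and 4.08 (3.97 ± 0.36). The groups did not overlap, and Ier5l rose 3.73-fold, by 1.90 (SE 0.37, 95% interval 1.11 to 2.69, limma adjusted p = 0.00373). This was called in 10 of 10 leave-outs of 1 array, with differences of 1.80 to 2.02. The Ier5l call was lost with normexp background correction, where the difference was 1.20 and 261 of 11433 features were called. In the selecting Il10-/- arrays the values were 2.24, 2.33, 2.21, 2.19 and 2.10 without irradiation (2.21 ± 0.08) and 3.94, 3.67, 3.49, 4.04 and 3.72 with it (3.77 ± 0.22), a difference of 1.56. Unirradiated Il10-/- arrays were the tightest group of any of the 8 leading probes.

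Creb5 encodes a basic leucine zipper transcription factor that binds cAMP response elements. It was the brightest member and the only one that was lower after irradiation. Unirradiated WT arrays read 8.01, 8.34, 8.48, 9.27 and 8.96 at the probe A_55_P2097474 (8.61 ± 0.50). Irradiated WT arrays read 7.58, 7.64, 6.46, 7.38 and 7.22 (7.26 ± 0.48). These groups did not overlap, but the difference of −1.35 (SE 0.39, 95% interval −2.19 to −0.52, limma adjusted p = 0.0296) missed the call in the WT fit, since its unadjusted p was above 0.001. Of 12 alternative settings 1 called it, that with all 4 groups in 1 fit (limma adjusted p = 0.00264), and with normexp background correction the Creb5 difference was −0.20. Unirradiated Il10-/- arrays, which selected the probe, read 8.25, 8.51, 7.88, 8.07 and 8.47 (8.23 ± 0.27), and irradiated ones 7.01, 6.79, 6.51, 7.15 and 7.15 (6.92 ± 0.28), a difference of −1.31. A second Creb5 probe, A_55_P2076821, matches another transcript and was well above background on 0 of 20 arrays.

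The Creb5 probe begins with an unbroken run of 26 alternating G and T bases. It lies at chr6:53645678-53645737, from base 2724 of NM_172728. Runs of 20 or more such bases were found in 52 of 39429 probes, which is 0.132%. The genes whose leading probe was most like it over the 20 arrays, among 15710 genes, were Luc7l2 (r = 0.997), Ephb3 (r = 0.986) and Pak4 (r = 0.985), and each of these probes carries such a run, of 32, 33 and 38 bases. Of the 10 tested probes most like it, 7 held the run, and those of Synpo2l (r = 0.985), Zfp791 and I730030J21Rik did not. A stretch of 30 bases of the Creb5, Luc7l2, Ephb3 and Pak4 probes is shown because the repeat is what they share, with the alternating bases in capitals.
Creb5 A_55_P2097474: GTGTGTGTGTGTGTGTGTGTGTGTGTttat
Luc7l2 A_55_P1953361: GTGTGTGTGTGTGTGTGTGTGTGTGTGTGT
Ephb3 A_55_P2054332: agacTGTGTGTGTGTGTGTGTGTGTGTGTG
Pak4 A_55_P2117731: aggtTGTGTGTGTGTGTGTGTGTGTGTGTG

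The other 51 probes with the run were all tested. They were lower after irradiation in 51 of 51 cases in both genotypes, with median differences of −1.07 in WT and −1.21 in Il10-/- mice, and limma called 49 lower in Il10-/- and 2 in WT mice. Their correlation with the Creb5 probe exceeded 0.9 for 26 of 51 (51%). Over all 18586 tested features besides the Creb5 probe it did so for 50 (0.269%), a count that includes these 26. The 2 further Luc7l2 probes, which lack the run, differed by −0.71 and −0.07 in WT and by −0.93 and −0.51 in Il10-/- mice, and correlated with the Creb5 probe by 0.40 and 0.02. The repeat was looked for after the Creb5 values were seen, and its part in the Creb5 signal was not tested. The values above are those of this probe.

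**Figure D3:**
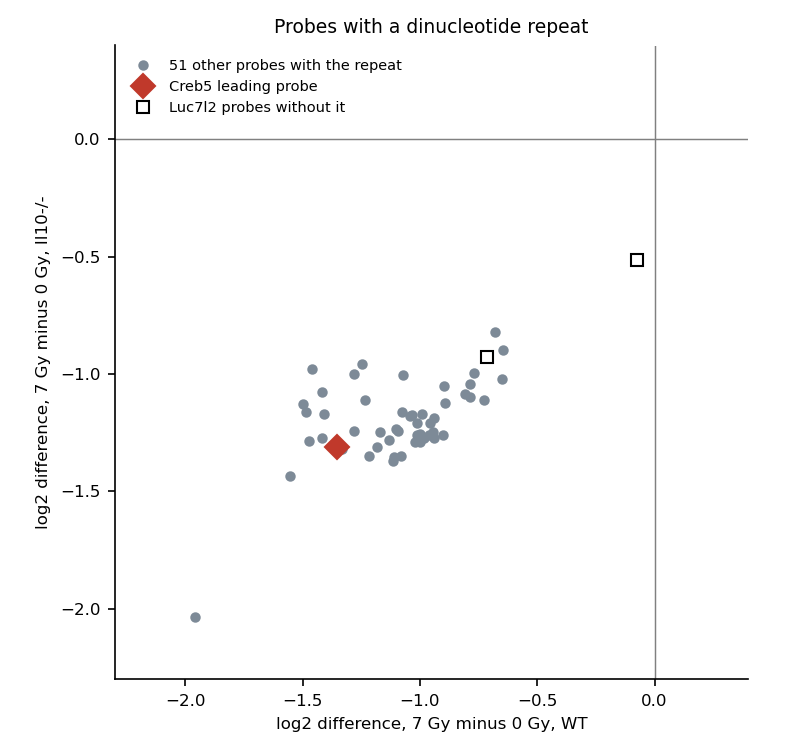
Log2 difference of 7 Gy minus 0 Gy in WT (x axis) and Il10-/- mice (y axis) for the 51 other probes with a run of alternating G and T bases (grey), the Creb5 probe (red diamond) and the 2 Luc7l2 probes without the run (open squares). The Creb5 probe, at −1.35 and −1.31, lies among the repeat probes, all of which are below 0 on both axes.

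Nus1 encodes a subunit of the dehydrodolichyl diphosphate synthase, which makes the lipid carrier of protein N-glycosylation. A bright and a dim probe measure it. The probe named in the published classifier, A_51_P292030 at chr10:52156439-52156498 and from base 1054 of NM_030250, was well above background on 20 of 20 arrays. Its first 30 bases are agtatgcagcttgcgaacagcgactgggaa. Unirradiated WT arrays read 3.42, 3.48, 3.36, 3.05 and 1.99 (3.06 ± 0.62) and irradiated ones 3.89, 3.91, 3.80, 3.97 and 4.02 (3.92 ± 0.08), a difference of 0.86 on the arrays that selected it. Unirradiated Il10-/- arrays read 4.16, 4.25, 3.55, 3.97 and 3.77 (3.94 ± 0.28) and irradiated ones 4.16, 4.22, 3.84, 4.75 and 4.12 (4.22 ± 0.33). In Il10-/- mice the groups overlapped, and the difference of 0.28 gave p = 0.222 in a two-sided exact permutation test. With normexp background correction this difference was −0.11. The lowest WT value came from the weakest array. On 3 arrays this probe lay at least 1.5-fold away from its own median, and 4 arrays were needed to pass the filter on change.

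The Nus1 probe that did pass, A_55_P2024070, was well above background on 3 of 20 arrays. It ranged from −1.96 to −0.17 and from −0.99 to −0.10 in unirradiated and irradiated WT mice, and from −1.55 to −0.36 and from −0.84 to 1.81 in Il10-/- mice. Its differences were 0.53 in WT and 0.97 in Il10-/- mice (SE 0.45, 95% interval −0.01 to 1.95, limma adjusted p = 0.145), and a change was not detectable at this brightness.

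**Figure D4:**
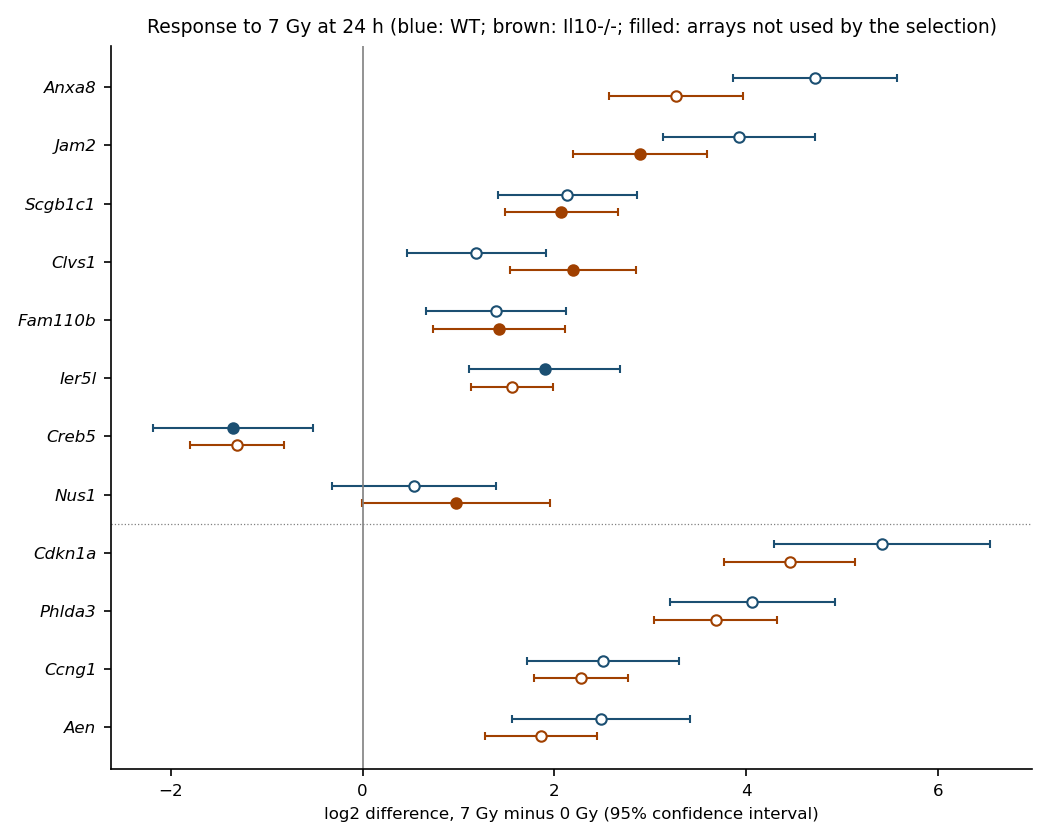
Log2 difference of 7 Gy minus 0 Gy with its 95% confidence interval from limma, for the leading probe of the 8 genes and for 4 p53 targets below the dotted line, with WT in blue and Il10-/- in brown. Filled circles mark arrays that the selection of the gene did not use, where Jam2, Scgb1c1, Clvs1, Fam110b and Ier5l are above 0, Creb5 is below 0 and the interval of Nus1 reaches 0. Open circles mark all other estimates, and their intervals are a description.

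Set beside 4 p53 targets of the published classifiers, the leading probes of Anxa8 and Jam2 differed by amounts in the range of these targets. Both genes came from rebuilt selections. Their second tested probes differed by less than all 4 targets, by 1.72 in WT and 1.59 in Il10-/- mice for Anxa8 and by −0.11 and 0.19 for Jam2. Cdkn1a, which arrests the cell cycle, was higher by 5.42 in WT and 4.45 in Il10-/- mice, and Phlda3, an inhibitor of Akt signalling, by 4.06 and 3.68. Ccng1, a cyclin, was higher by 2.51 and 2.28, and the apoptotic nuclease gene Aen by 2.49 and 1.86. In Il10-/- mice Clvs1 (2.19) and Scgb1c1 (2.07) lay between Ccng1 and Aen, and in WT mice both (1.19 and 2.13) were below all 4. Ier5l (1.90 and 1.56) and Fam110b (1.39 and 1.42) were below all 4 in both genotypes. No difference between a member and a p53 target was tested, since different probes are not set on 1 scale of level.

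For no member did the response to 7 Gy differ between genotypes past the threshold. The interaction of dose and genotype, fitted with limma over all 20 arrays, called 0 of the 8 members and 0 of 18587 features, and 3 members had an unadjusted p below 0.05 where 7% of features did. The Anxa8 interaction was −1.45 (SE 0.50, limma adjusted p = 0.688). The Jam2 interaction was −1.03 (SE 0.47, limma adjusted p = 0.688). The Clvs1 interaction ran the other way, at 1.00 (SE 0.41, limma adjusted p = 0.688). All 3 thus failed the correction. The interactions of Anxa8 and Clvs1 rest on measured signals of a group with 0 of 5 arrays well above background, unirradiated WT mice for Anxa8 and unirradiated Il10-/- mice for Clvs1, so that their sizes are not determined. For the other 5 members the interaction lay between −0.34 and 0.44, and the 95% intervals of Scgb1c1 and Ier5l ran from −0.87 to 0.74 and from −1.13 to 0.45.

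Between the unirradiated groups 0 of the 8 members were called by limma, where 0.845% of features were, all higher in Il10-/- mice, and 1 member had an unadjusted p below 0.05, where 16.1% of features did. That member was Anxa8, higher in Il10-/- mice by 1.19 (SE 0.36, limma adjusted p = 0.188), or at least 1.06-fold. Its groups did not overlap (4.52% of features had no overlap), which by itself fixes the same direction in 5 of 5 slides. The median over all features was itself 0.36 higher in Il10-/- mice on this scale and −0.07 with arrays scaled to their 75th percentile, where the Anxa8 difference was 0.84, and it was 0.05 with normexp background correction. The bright Nus1 probe, which was in no fit across features, was higher in unirradiated Il10-/- mice by 0.88, with no overlap, on WT arrays that its selection used, so that this is a description. With arrays scaled to 1 reference array the Nus1 difference was 0.60. The remaining members differed by −0.38 to 0.43 at their leading probes, all with an unadjusted p above 0.05.

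Between the irradiated groups 0 of 8 members were called by limma, where 0.00538% of features were, and 2 had an unadjusted p below 0.05, where 11.1% of features did. Clvs1 was higher in Il10-/- mice by 0.74 (limma adjusted p = 0.402), and the Jam2 difference was −0.59 (limma adjusted p = 0.403). Neither pair of groups overlapped, which held for 2.95% of features, and both differences failed the correction. The bright Nus1 probe differed by 0.30, and by −0.33 with normexp background correction, which turns its direction.

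Markers of tissues other than blood moved with dose in these arrays. Of 16 tested liver genes, 12 were called higher after irradiation in WT and 0 in Il10-/- mice, and of 7 heart muscle genes 0 and 5. The mean liver signal was 0.21 to 1.72 in unirradiated and 2.53 to 10.89 in irradiated WT mice, and 1.84 to 9.18 and 1.34 to 9.10 in Il10-/- mice. Of 9 genes of epithelium and mesothelium, 4 were called higher in WT and 3 in Il10-/- mice, among them Krt19 (3.58 and 1.99) and Msln (3.74 and 2.42). Their mean signal was −0.74 to 0.31 in unirradiated and 0.88 to 2.94 in irradiated WT mice. In Il10-/- mice it was 0.14 to 1.10 and 1.40 to 2.14, so the dose groups did not overlap in either genotype. Of 5 endothelial genes, none of them a member, 0 were called, with mean signals of 1.42 to 2.80 and 2.47 to 3.14 in WT and of 1.84 to 2.59 and 2.89 to 3.33 in Il10-/- mice.

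On single arrays the liver and heart signals and the members read as follows. Unirradiated Il10-/- replicates 3 and 4, with liver means of 7.92 and 9.18, read 0.50 and −0.35 for Anxa8 and 0.10 and 1.02 for Jam2. All were below every irradiated array, and 0.50 and 1.02 were the highest unirradiated values of these genes. The heart means of these replicates were −1.03 and −0.68. Irradiated Il10-/- replicate 3, with a liver mean of 1.34, read 2.43 for Anxa8, 2.81 for Jam2 and 2.84 for Scgb1c1, above every unirradiated array, and its heart mean of 3.72 was also above that of every unirradiated array, the highest of which was 2.33. Irradiated WT replicates 4 and 5, with heart means of −0.17 and −0.13 and liver means of 2.53 and 5.19, read 2.69 and 3.09 for Anxa8 and 3.14 and 3.88 for Jam2. With the liver and heart means as covariates, the WT fit called 0 of the 8 members and 13 of 18587 features, with a difference of 0.91 for Ier5l (limma adjusted p = 0.839) and −0.47 for Creb5 (limma adjusted p = 0.898). The liver means of the WT dose groups did not overlap, so this fit could not tell dose from liver level. The Il10-/- fit then called Jam2 (3.05) and Clvs1 (2.53), gave a difference of 3.82 for Anxa8, and no longer called Scgb1c1 (1.90, limma adjusted p = 0.047) or Fam110b (1.01, limma adjusted p = 0.349). The epithelium and mesothelium list was not used as a covariate, and the part of other tissue in the members' signals was not tested.

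**Figure D5:**
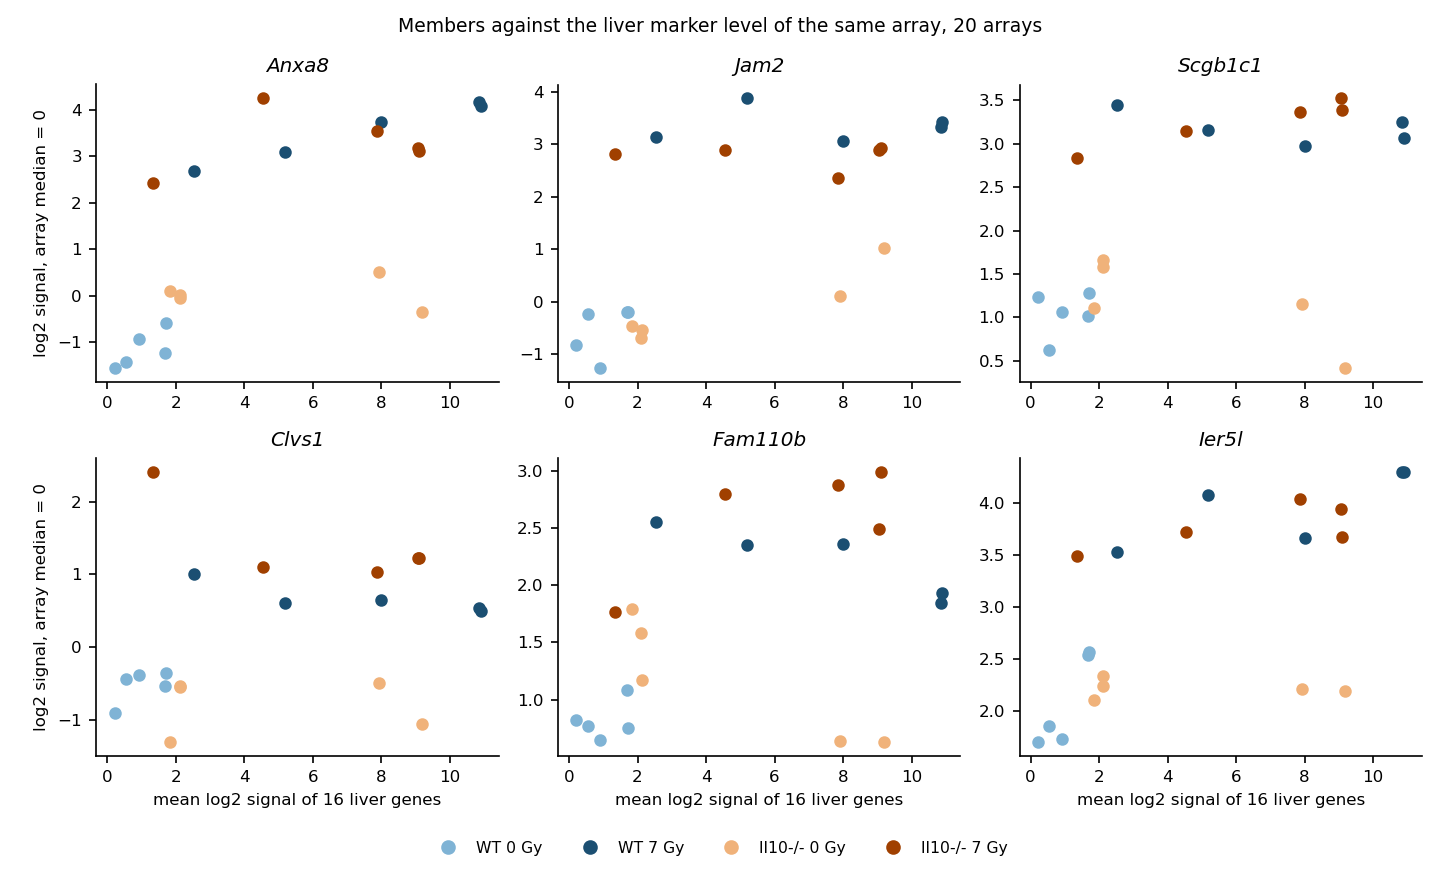
Log2 signal of 6 members (array median = 0) against the mean log2 signal of 16 liver genes on the same array, 20 arrays coloured by group. In every panel but that of Fam110b the irradiated arrays lie above all unirradiated arrays. The 2 unirradiated Il10-/- arrays with liver means of 7.92 and 9.18 read 0.50 and −0.35 for Anxa8 and 0.10 and 1.02 for Jam2. Of these, 0.50 and 1.02 are the highest unirradiated values of the 2 genes.

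Relatives of the members were counted in lists, where 6.8% of all features were called in WT and 9.16% in Il10-/- mice. Of 8 tested annexins other than Anxa8, 2 were called in each genotype, Anxa3 (2.62 in WT, 1.37 in Il10-/-) and Anxa4 (2.58 and 1.16), both higher in both genotypes. Anxa1, an annexin of myeloid cells, was called higher by 1.81 in unirradiated Il10-/- mice. Of 5 genes of junctional adhesion molecules and their partners, F11r was called in WT mice (1.63) and 0 in Il10-/- mice. Of 3 tested secretoglobins, Scgb2b27 was called higher in Il10-/- mice by 1.38, from a probe well above background on 0 arrays. The medians of these lists in WT and Il10-/- mice were 0.79 and 0.06 for the annexins, 1.63 and 0.44 for the adhesion genes and −0.32 and −0.01 for the secretoglobins.

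Of 6 tested CRAL-TRIO genes, Ttpal was called lower in Il10-/- mice by a difference of −1.19. The relatives Fam110a (−0.60 and −0.35) and Fam110c (−0.15 and −0.46) were not called. Of 12 immediate early genes 0 were called in WT mice, and in Il10-/- mice the stress-induced factor Atf3 was higher (1.21) and the nuclear receptor Nr4a1 lower (−1.30). Atf3 was also the only gene called of 15 CREB and ATF factors in Il10-/- mice, and 0 of the 15 were called in WT mice. Of 17 genes of dolichol and N-glycan precursor synthesis 1 was called in each genotype, Npc2 (1.77 and 1.02), which encodes a cholesterol carrier of the lysosome.

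Likeness of pattern was ranked by Pearson's r over the 20 arrays among the leading probes of 15710 genes. Anxa8 was most like Gas6 (r = 0.966), Mgp (r = 0.957) and Pcolce (r = 0.954), and Jam2 like Ccl24 (r = 0.972), Bst2 (r = 0.965) and Ifi27l2a (r = 0.964). Ier5l was most like Ifi27l2a (r = 0.955), Pcolce (r = 0.955) and Anxa8 itself (r = 0.951). Scgb1c1 was like 1200007C13Rik (r = 0.956) and Mest (r = 0.955), and Fam110b like Bean1, Tspan18 and Armcx6 (r = 0.954 to 0.963). Clvs1 (r = 0.932 with TC1725171) and the dim Nus1 probe (r = 0.884 with Mrgprg) had less close neighbours. The points share their dose groups: after group means were taken out, r was 0.67 for Anxa8 with Gas6 and 0.80 for Jam2 with Ccl24. Among the members themselves, Anxa8 and Jam2 correlated by 0.93 over all arrays and by −0.11 within groups.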

How the data were processed

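The authors deposited the Feature Extraction output of 20 one-colour Agilent 4x44K v2 mouse arrays, 5 per group. The software version is 10.7 in the labels but 12.0.2.2 in the file headers, which name build mm9. The deposited intensities are processed signals, which the authors' software had background-subtracted and detrended, with no scaling between arrays. Also deposited by the authors were log2 values with 1 constant removed per array, for 16866 non-control features with 11 member probes, used as an alternative.

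Spots flagged as non-uniform were dropped, log2 intensities of repeated spots averaged, and the array median over 39429 non-control probes subtracted. Probes marked on 25% or more of arrays, or with under 20% of arrays 1.5-fold from their median, were not tested, which left 18587 features. Of 13 member probes 10 were tested, with each of the 8 genes among them. A gene's leading probe is the brightest tested one. Contrasts were fitted with limma 3.58.1 in R 4.3.3 (data.table package, version 1.17.8) on the 2 groups compared, the interaction on all 20 arrays, with calls as defined in the report (p 0.001, Benjamini-Hochberg 10%). Probes outside the fit had a two-sided exact permutation test (smallest p 0.0079). The fit was tested on simulated data. A fold is given as "at least" where a probe was not well above background on any array of the lower group, against the higher of each array's lowest signal well above background and the probe's own. All 8 genes matched RefSeq symbols by accession. Probe sequences and positions are those of the array files, and coding or noncoding position is not given in the sources used here.

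Members and lists were chosen with earlier results of these data known. Named genes are the 8 members with all their probes, for each leading probe the 3 genes with the highest Pearson r (1 gene is not reported here), of family lists the called genes (at most 4 per list and comparison), and Cdkn1a, Phlda3, Ccng1 and Aen. Alternatives changed the scaling, background correction (normexp, offset 50), filters, moderation, samples in the fit, slide as a block, liver and heart covariates, and single arrays. The number of arrays limits the precision. Other marker lists (T cells, NK cells, neutrophils and their precursors, monocytes, platelets, lung) had 0 to 2 genes called by dose per genotype.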

Additional observations from a re-analysis of the deposited data

Results flagged for a closer look

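In 5 of 52 sets of 5 arrays, 1 array stood apart from the other 4, by Dixon's gap over the group's range with a limit of 0.71. Chance flags about 1 set in 20. The highest ratio was that of Clvs1 in irradiated Il10-/- mice, where replicate 3 (2.41) was highest with a ratio of 0.863, and the next value was 1.23. Jam2 had 3 such sets: replicate 4 was lowest at the leading probe A_55_P2123502 in irradiated Il10-/- mice (ratio 0.796), replicate 3 was highest at A_55_P2381926 in the same group (0.724), and replicate 1 was highest at A_55_P2123496 in irradiated WT mice (0.823), a probe that failed the background filter. For the dim Nus1 probe A_55_P2024070, replicate 4 was lowest in irradiated WT mice (0.725). Without replicate 3 of the irradiated Il10-/- mice, the Clvs1 response in Il10-/- mice was 1.94 and was still called. That array had 34.6% of spots well above background, and why it stood apart was not tested.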

How the results depend on the processing

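Of the 8 members, 5 were called in WT and 7 in Il10-/- mice, counts that are a description since the members were chosen on these contrasts. With normexp background correction, which left 5 members and 11433 features in the test, the counts were 1 (Jam2) and 0. That setting called 261 features in WT and 0 in Il10-/- mice. Of 18587 features, the fits with liver and heart covariates called 13 and 566, and the member counts were 0 and 3. In WT mice that fit could not tell dose from liver level. Under the other settings they were 4 to 7 and 5 to 7, and without 1 array at a time 4 to 6 and 6 to 7, WT losing Fam110b in 9 of 10 cases and gaining Clvs1 without unirradiated replicate 5. The other settings called 742 to 2119 features in WT and 815 to 1886 in Il10-/- mice, of 16503 to 39429 tested. Without 1 array at a time, 863 to 1573 and 1133 to 1535 of 18587 features were called. Both genotype comparisons and the interaction had 0 members called under every setting, including each array left out (0 to 0). Rebuilt classifiers held 5 members, 2 on the series table and 0 with the 75th percentile. With the slide as a replicate block the counts were 4 in WT, 7 in Il10-/- mice and 0 for both genotype comparisons and the interaction. Deviations of arrays sharing a slide correlated by −0.37 to 0.68, exceeding 0.1 in 4 of 5 slides in WT mice and between irradiated groups and in 2 of 5 in the other comparisons, so the numbers were not taken to pair mice, although arrays of a slide share that batch. The block gave 1626 features in WT, 1290 in Il10-/- mice and 384 between unirradiated groups, against 1263, 1702 and 157. Chosen after seeing the data, averaging replicates 1 and 2 gave 4 and 5 members, losing Fam110b in both and Creb5 in Il10-/- mice, and 0 elsewhere. This averaging called 754 features in WT and 815 in Il10-/- mice. Without unirradiated WT replicate 5 and irradiated Il10-/- replicate 3 the interaction called 0 members, with −1.12 for Anxa8, −0.96 for Jam2 and 0.85 for Clvs1. Fam110b was also lost in Il10-/- mice with quantile normalization, no filter and no moderation, and in WT mice with the 75th percentile, the reference array, the series table and the block. The cause of these losses was not tested. Of single differences at a probe, 522 kept direction and call, 27 lost and 6 gained a call, and 40 that were never called changed sign. Signal over background limits Clvs1, Nus1 and unirradiated Anxa8.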
